A study of Drosophila melanogaster with 12 samples.

Results

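Mitochondrial ribosomal protein genes were taken as the genes whose symbol is mRpL or mRpS followed by a number, which encode proteins of the large (mRpL) and the small (mRpS) subunit of the mitochondrial ribosome. A gene counted where at least 1 probe set of the array was annotated to it alone, and its probe set with the highest mean signal represented it. This gave 69 of the 11982 genes that have a probe set of their own, 44 of the large and 25 of the small subunit. RefSeq lists 73 symbols of this form. Of the other 4, mRpL53 and mRpS10 were matched only to probe sets that report a further gene as well, and mRpL34 and mRpL37 were not analysed here.

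Mitochondria keep a small genome that encodes core subunits of the respiratory chain together with the ribosomal and transfer RNAs needed to translate them. The proteins of the mitochondrial ribosome are encoded in the nucleus, made in the cytosol and imported, so the organelle's translation depends on many nuclear genes being expressed together. Some of these proteins descend from those of the bacterial ribosome and others were gained in the mitochondrial lineage. In Drosophila, a mutation of tko, which encodes the homologue of mRpS12, gives flies that develop slowly and have seizures after a mechanical shock.

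RNA was measured in whole wild-type males (called wt in the sample titles, with no strain or age), with 8 males pooled per array and 3 arrays in each of 4 groups. The groups were males exposed to methylphenidate for 24 hours, males exposed to sucrose for 24 hours, F1 males of a methylphenidate-exposed mother and a sucrose-exposed father, and F1 males of parents that were both exposed to sucrose. Methylphenidate is a psychostimulant that blocks the dopamine transporter. The labels do not say what the F1 males themselves were fed or how long their parents were exposed. The series text names a single cross, with methylphenidate-exposed mothers, for all 6 F1 samples, whereas the sample labels name both crosses; the labels were followed, and every F1 value below rests on them. The labels do not say whether replicate pools were reared apart; the p-values reflect the spread among these arrays, which may be technical.

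Methylphenidate moved none of the 69 genes past the threshold, in exposed males or in F1 males. Of all probe sets, 3.35% passed in exposed males and 0.00533% (1 probe set) in F1 males. Between generations 14 genes were higher in F1 males of sucrose-exposed parents than in sucrose-exposed males, 13 of them of the large subunit, by 1.17-fold to 1.36-fold; that is 20.3% of the 69, against 6.33% of all probe sets, or 13.6% with the dimmest 50% of probe sets left out. The count was 4 without replicate 1 of the sucrose-exposed males and 3 with an RNA integrity measure as a covariate. Over all 18769 probe sets the higher calls in these fits were 823 and 695, against 1188 in the main fit. Between F1 males of a methylphenidate-exposed mother and methylphenidate-exposed males 2 of the 69 were higher (2.9%), against 4.76% of all probe sets. The threshold throughout was a limma Benjamini-Hochberg adjusted p under 0.05 over 18769 probe sets, and a gene is said to have risen or fallen only where it passed. Log2 changes are given with the standard error (SE) of the fit.

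The signal of every one of the 69 genes, averaged over the 12 arrays, lay above the median of all probe sets (1.52 on the log2 scale). Their mean log2 signals ran between 2.20 and 6.64 with a median of 3.69. The brightest probe sets were those of mRpS5 (6.64), mRpS21 (5.89) and mRpL28 (5.31), and the dimmest those of mRpL32 (2.20), mRpL39 (2.25) and mRpL11 (2.26). Signals of different probe sets depend on the probes and do not rank transcript levels. Replicates lay close together: the within-group SD was between 0.0235 (mRpS21) and 0.282 (mRpL33), with a median of 0.0936. After mRpL33, the least repeatable were mRpS2 and mRpS23, with within-group SDs of 0.233 and 0.209.

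Each gene was set against its own mean over the 12 arrays to see how the groups were placed. For 45 of the 69 genes the sucrose-exposed males had the lowest group mean of the 4 groups, which held for 29 of 44 large-subunit and 16 of 25 small-subunit genes. The highest group mean belonged to F1 males of a methylphenidate-exposed mother for 22 genes, to F1 males of sucrose-exposed parents for 28, to methylphenidate-exposed males for 14 and to sucrose-exposed males for 5. These counts are a description, since the groups enter each comparison below with the same arrays.

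**Figure D1:**
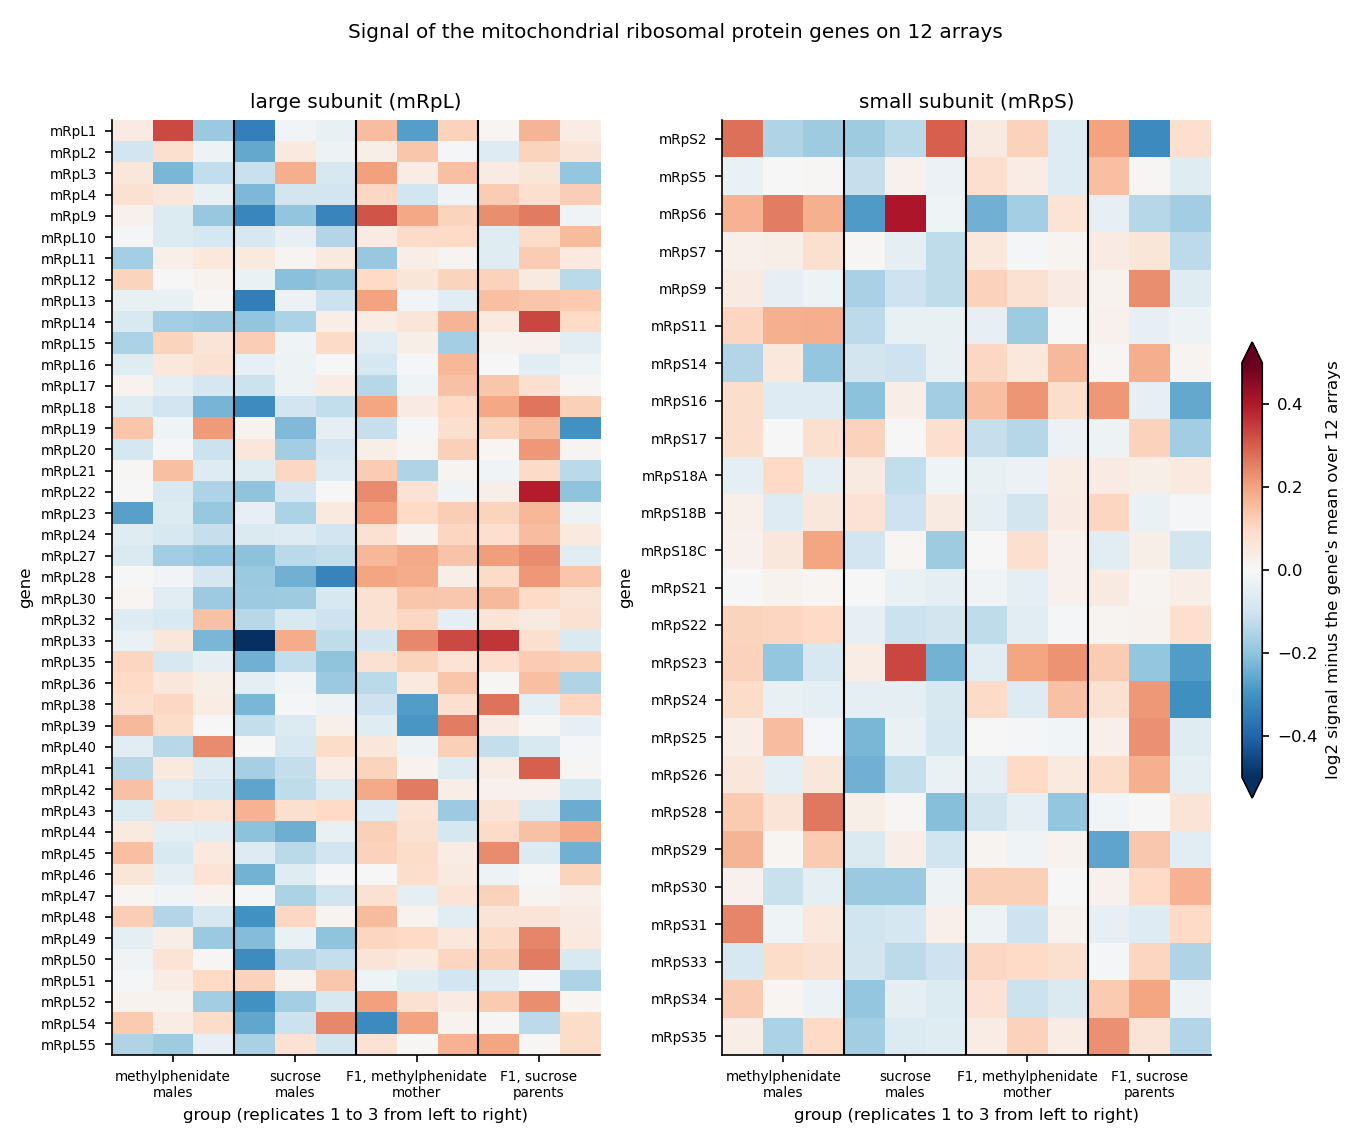
Log2 signal of each of the 69 genes on each of the 12 arrays, minus that gene's mean over the 12 arrays (colour, red higher and blue lower). Rows are genes, large subunit on the left and small subunit on the right; columns are arrays, replicates 1 to 3 within each group, with black lines between groups. The columns of sucrose-exposed males are mostly blue, and replicate 1 of that group is the bluest for the large subunit.

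The array as a whole gave comparable signals for 11 arrays, with a median log2 signal between 1.495 and 1.57, and a lower one on the array of the third pool of sons of sucrose-exposed parents (1.37). Between 36.8% and 38.8% of probe sets had a log2 signal under 0.5 on each array. Arrays of 1 group correlated at 0.9951 to 0.9975 over all probe sets. Markers of male tissue had clear signals: the testis gene Mst84Da had a mean log2 signal of 9.69, while 2 of the 11 testis genes, bam (0.19) and aly (0.21), were near the floor. Of 7 female-specific genes, 6 had mean log2 signals of at most 0.30, and the yolk protein gene Yp3 had 2.47. Because whole flies were measured, fewer cells of a tissue and less RNA per cell cannot be told apart.

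The first comparison asked how the genes responded to 24 hours of methylphenidate. None of the 69 passed, against 3.35% of all probe sets in either direction. An unadjusted p under 0.05 was found for 10 of the 69 (14.5%), a share near the 15.3% of all probe sets. The log2 changes were small and mostly positive: they ran between -0.13 and 0.22 with a median of 0.09, where the median of all probe sets was -0.02, and 54 of the 69 were above 0. For 68 of the 69 the 95% confidence interval of the log2 change lay within 0.5 of 0, that is within 1.41-fold; the exception was mRpL33, with an interval between -0.25 and 0.54. Values of the 3 methylphenidate arrays lay wholly above those of the 3 sucrose arrays for 19 genes, as they did for 9.28% of all probe sets, and wholly below for none, against 12% of all probe sets.

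The smallest p-values in exposed males belonged to mRpS11, mRpL28 and mRpS22. mRpS11, a homologue of a bacterial platform protein of the small subunit, had log2 signals of 3.80, 3.87 and 3.87 in methylphenidate-exposed males, against 3.56, 3.65 and 3.66 in sucrose-exposed males. All 3 drug values were above all 3 sucrose values, and the log2 change was 0.22 ± 0.07 (SE; limma adjusted p = 0.111). A second probe set of mRpS11 had 3.32, 3.19 and 3.14 in methylphenidate-exposed males, against 3.09, 3.19 and 3.26 in sucrose-exposed males. There the groups overlapped and the log2 change was 0.03 ± 0.08, so the 2 probe sets of this gene differed in size.

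mRpL28, a large-subunit protein with a bacterial homologue, had log2 signals of 5.31, 5.30 and 5.23 with methylphenidate, against 5.13, 5.07 and 4.98 with sucrose. Its change was 0.22 ± 0.07 (SE; limma adjusted p = 0.137). mRpS22, a small-subunit protein with no bacterial counterpart, had 4.07, 4.06 and 4.05 with methylphenidate, against 3.91, 3.85 and 3.86 with sucrose. All drug values were higher than all sucrose values, and the change was 0.19 ± 0.06 (limma adjusted p = 0.150). The next 5 by p were mRpL35 (0.18), mRpS28 (0.21), mRpL50 (0.21), mRpS18C (0.18) and mRpL4 (0.17), with limma adjusted p between 0.209 and 0.272. In each of these 8 genes the groups did not overlap.

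By role, positive changes prevailed in both subunits in exposed males. Of 44 large-subunit genes 33 had a positive change, with a median of 0.08, and of 25 small-subunit genes 21, with a median of 0.10. The groups did not overlap, with methylphenidate higher, for 9 of the 44 and 10 of the 25, against 9.28% of all probe sets. The difference between these subunits was not tested. The 29 genes numbered beyond the bacterial set had a median of 0.14, and the 40 with bacterial-type numbers a median of 0.05. The stalk proteins mRpL10 and mRpL12, whose bacterial homologues recruit translation factors, had changes of 0.03 ± 0.07 and 0.19 ± 0.08 (limma adjusted p = 0.894 and 0.275). mRpS29, a GTP-binding protein, had 0.15 ± 0.09 (limma adjusted p = 0.512). The 3 paralogs of mRpS18 had 0.04 for mRpS18A, 0.00 for mRpS18B and 0.18 for mRpS18C.

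A measure of RNA integrity and the testis markers also differed, without overlap, between methylphenidate-exposed and sucrose-exposed males. Mean signals of the midgut, fat body, muscle and accessory gland markers overlapped between these groups. The GAPDH control's log2 signal at the 3′ end minus that at the 5′ end, which rises as RNA is degraded, averaged 1.504 ± 0.00299 in methylphenidate-exposed males and 1.62 ± 0.0860 in sucrose-exposed males (SD, n = 3 each; exact permutation p = 0.1, two-sided, the smallest possible with 3 against 3). With it as a covariate the median log2 change of the 69 genes was 0.018 in place of 0.09. That of all probe sets was -0.035 in place of -0.015, with 151 higher and 52 lower calls in place of 447 and 182. As this measure separates the groups, its part cannot be told apart from that of the drug and was not tested. The 11 testis markers had a mean log2 signal between 5.62 and 5.72 in methylphenidate-exposed males and between 5.81 and 5.90 in sucrose-exposed males; none was called, all 11 changes were negative and their median was -0.18. Of 4 midgut markers 1 rose and 2 fell under methylphenidate, with mean log2 signals between 8.27 and 8.65 in methylphenidate-exposed males and between 8.60 and 8.81 in sucrose-exposed males, and of 4 fat body markers 2 fell, with mean log2 signals between 4.76 and 5.76 in methylphenidate-exposed males and between 5.18 and 5.58 in sucrose-exposed males. All 6 muscle markers (median -0.25) and all 6 accessory gland markers (median -0.12) had negative changes, and none of them passed. The part of these tissues in the changes above was not tested.

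**Figure D2:**
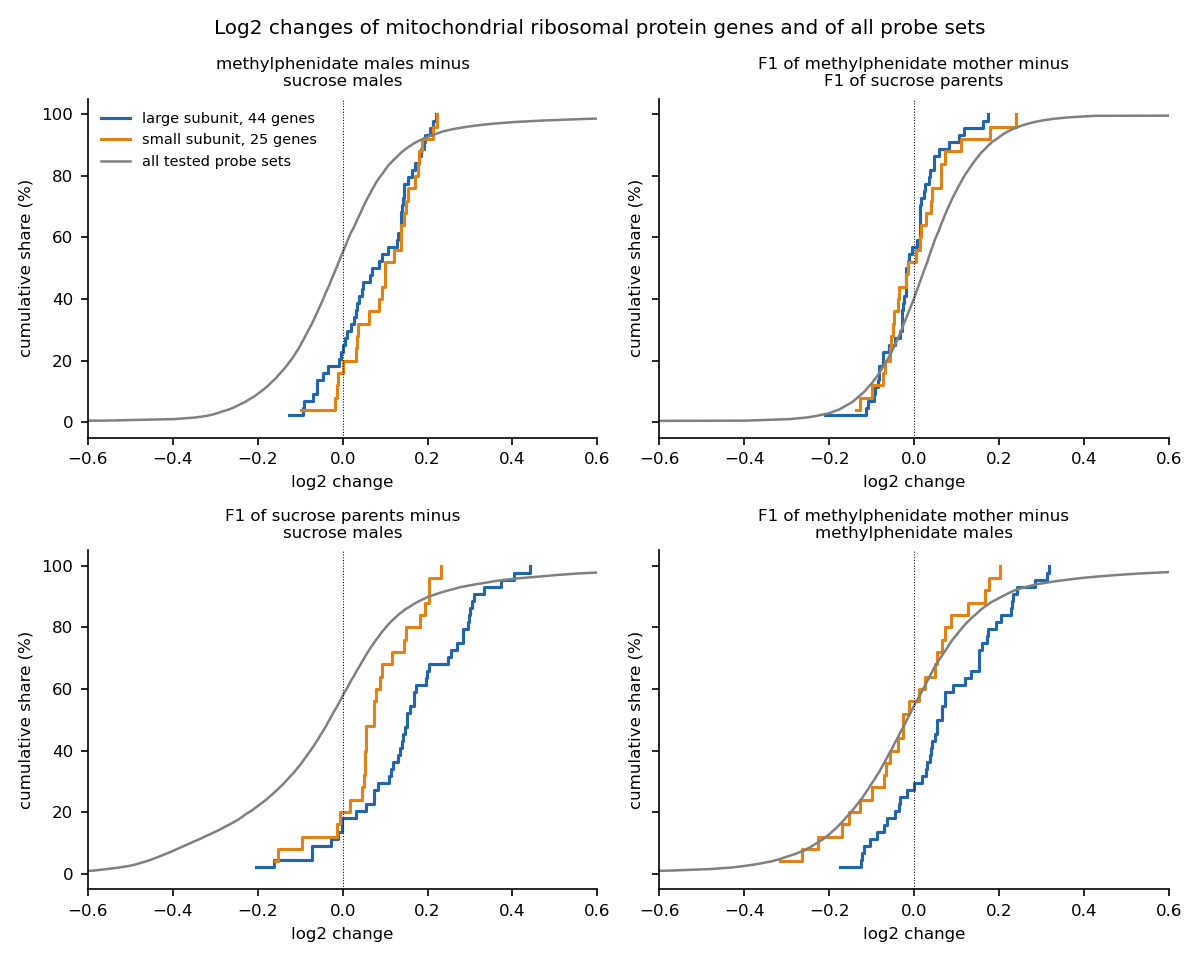
Cumulative share (%) of log2 changes for the 44 large-subunit genes (blue), the 25 small-subunit genes (orange) and all 18769 probe sets (grey), in 4 comparisons named above each panel. In methylphenidate-exposed males both subunits lie to the right of the grey line (member median 0.09, all probe sets -0.02), in F1 males they lie near 0, and between the sucrose groups the large subunit lies furthest to the right (median 0.15).

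The second comparison asked whether sons of methylphenidate-exposed mothers differed from sons of sucrose-exposed parents. None of the 69 genes passed, against 0.00533% of all probe sets (1 probe set), and none had an unadjusted p under 0.05. The log2 changes ran between -0.21 and 0.24 with a median of -0.02, where the median of all probe sets was 0.03, and 31 of the 69 were above 0. The 95% confidence interval stayed within 0.5 of 0 for 68 genes. The exception was mRpS23, a protein of the small subunit, whose interval ran between -0.07 and 0.54.

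The smallest p in F1 males was that of mRpL38, a large-subunit protein of the mitochondrial lineage. Its log2 signals were 3.10, 2.93 and 3.29 in sons of methylphenidate-exposed mothers, against 3.48, 3.16 and 3.31 in sons of sucrose-exposed parents. The groups overlapped, and the change was -0.21 ± 0.10 (SE; limma adjusted p = 0.643). mRpL42 had 4.84, 4.91 and 4.68 in sons of methylphenidate-exposed mothers, against 4.67, 4.67 and 4.57 in sons of sucrose-exposed parents. The lowest value of the first group lay just above the highest of the second, and the change was 0.17 ± 0.09 (limma adjusted p = 0.651). The other genes with the smallest p had changes of 0.24 (mRpS23), 0.18 (mRpS16), -0.14 (mRpS34), 0.16 (mRpL3), -0.10 (mRpS22) and -0.11 (mRpL4), with limma adjusted p of at least 0.700. Values lay wholly above those of the sucrose parents' sons for 1 gene, mRpL42, against 7.56% of all probe sets, and wholly below for 2, mRpS22 and mRpS28, against 3.94%.

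The effect of methylphenidate in F1 males was then set against that in exposed males directly. None of the 69 differences passed, against 2.09% of all probe sets. An unadjusted p under 0.05 was found for 8 (11.6%), against 15.8% of all probe sets. The difference (F1 minus exposed) was negative for 53 genes, with a median of -0.09, where the median of all probe sets was 0.04. mRpS22 and mRpS28 stood on opposite sides in the generations: in exposed males the drug values lay wholly above the sucrose values, and in F1 males wholly below. They were the only 2 of the 69 genes wholly below in F1 males, against 3.94% of all probe sets. How many of all probe sets show both patterns was not counted.

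For mRpS22 the log2 signals were 3.83, 3.90 and 3.94 in sons of methylphenidate-exposed mothers, against 3.97, 3.97 and 4.04 in sons of sucrose-exposed parents. The difference of effects was -0.29 ± 0.09 (SE; limma adjusted p = 0.137). mRpS28, a small-subunit protein, had 3.64, 3.68 and 3.53 in sons of methylphenidate-exposed mothers, against 3.71, 3.73 and 3.79 in sons of sucrose-exposed parents. In exposed males it had 3.86, 3.79 and 3.99 with methylphenidate, against 3.76, 3.73 and 3.51 with sucrose. Its difference of effects was -0.34 ± 0.12 (limma adjusted p = 0.177), and neither gene's difference was called. Next by p were mRpS11 (-0.28), mRpL4 (-0.28), mRpL38 (-0.37), mRpS34 (-0.27), mRpL44 (-0.25) and mRpL28 (-0.23), with limma adjusted p between 0.184 and 0.299. The second probe set of mRpS11 had a difference of effects of 0.01 ± 0.11.

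The comparison without any drug set F1 males of sucrose-exposed parents against sucrose-exposed males. Food, age and handling may differ between these groups along with the generation and cannot be told apart from it. Here 14 of the 69 genes rose and none fell, against 6.33% of all probe sets higher and 14.2% lower. Bright probe sets were called more often: with the dimmest 50% of probe sets left out, 13.6% of the rest were higher, and 15 of the 69 genes. The log2 changes of the 69 ran between -0.20 and 0.44 with a median of 0.13, where the median of all probe sets was -0.03, and 56 were above 0. Values of the F1 arrays lay wholly above those of the sucrose-exposed males for 23 genes, against 11.6% of all probe sets, and wholly below for 2, against 21.2%. Those 2, mRpL43 (-0.20) and mRpL51 (-0.16), were named after their values were seen.

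mRpL28 had the smallest p of the 69. Its log2 signals were 5.41, 5.53 and 5.45 in F1 males of sucrose-exposed parents, against 5.13, 5.07 and 4.98 in sucrose-exposed males. Every F1 value was above every value of the exposed males, and the change was 0.40 ± 0.07 (SE), a 1.32-fold difference (limma adjusted p = 0.00208). mRpL9, whose bacterial homologue sits at the base of the L1 stalk, had 4.06, 4.09 and 3.81 in F1 males, against 3.50, 3.63 and 3.50 in sucrose-exposed males. Its change, 0.44 ± 0.09 or 1.36-fold (limma adjusted p = 0.00397), was the largest of the 69, and its groups did not overlap either.

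mRpL18, whose bacterial homologue binds 5S ribosomal RNA, had 3.26, 3.33 and 3.18 in F1 males of sucrose-exposed parents, against 2.75, 2.97 and 2.94 in sucrose-exposed males. All F1 values were higher, and the change was 0.37 ± 0.08 (SE; limma adjusted p = 0.00558). mRpL35 had 3.90, 3.94 and 3.94 in F1 males, against 3.58, 3.69 and 3.62 in sucrose-exposed males. The F1 values lay above all those of the exposed males, and the change was 0.30 ± 0.07 (limma adjusted p = 0.00774).

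The other 10 genes that rose had higher adjusted p, and changes between 0.23 and 0.31. They were mRpL44, which carries a ribonuclease III-like domain (0.31, limma adjusted p = 0.0139), mRpL30 (0.25), mRpL52 (0.31), mRpL27, whose bacterial homologue reaches towards the peptidyl transferase centre (0.28), mRpL49 (0.28), mRpL50 (0.30), mRpL4 (0.25), mRpL13 (0.30), mRpS30 (0.23) and mRpL14 (0.27). From mRpL30 to mRpL14 the limma adjusted p lay between 0.0208 and 0.0462. In all 10 the groups did not overlap. mRpL13, mRpL14, mRpL49 and mRpS30 were named after their values were seen.

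**Figure D3:**
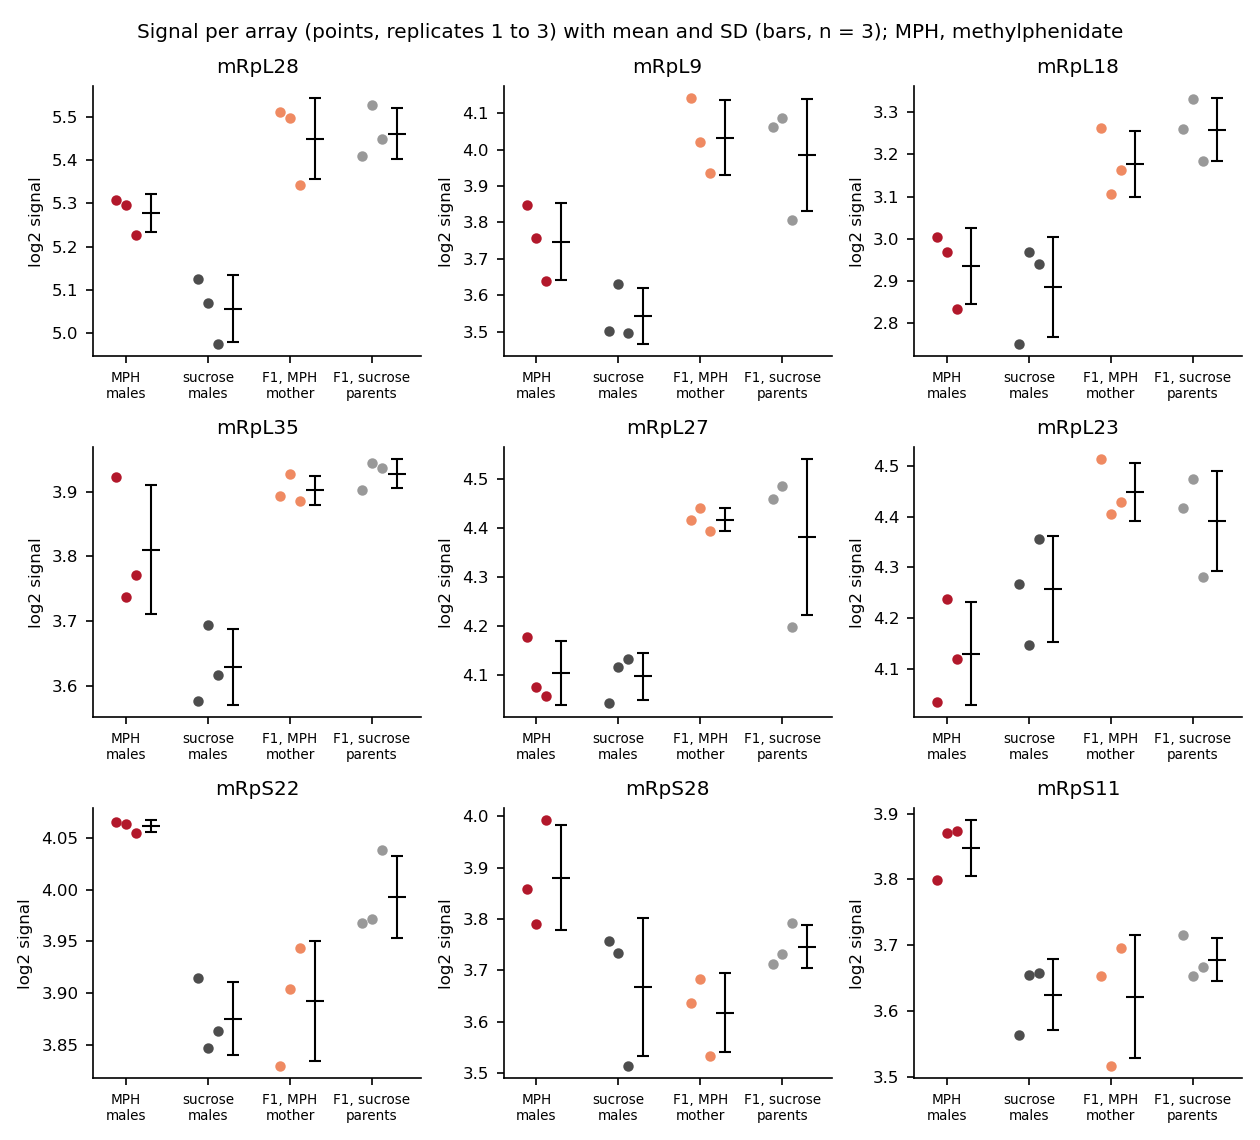
Log2 signal per array (points, replicates 1 to 3 from left to right) with the mean and SD (bars, n = 3) for 9 genes in the 4 groups; each panel has its own log2 axis, which does not start at 0. mRpL28, mRpL9, mRpL18 and mRpL35 are higher in F1 males of sucrose-exposed parents than in sucrose-exposed males without overlap, and mRpS22 and mRpS28 are the genes whose methylphenidate values lie above the sucrose values in exposed males and below them in F1 males.

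The genes that rose lay unevenly over the subunits. Of 44 large-subunit genes 13 rose (29.5%), against 6.33% of all probe sets, or 13.6% with the dimmest 50% of probe sets left out. The median log2 change over all 44 was 0.15. Of 25 small-subunit genes 1 rose (4.0%), with a median of 0.07. The exception, mRpS30, carries a small-subunit name, but its mammalian homologue is located in the large subunit, as is that of mRpS18A. Counted by that location, a recount made after the values were seen, 14 of 46 large-subunit and none of 23 small-subunit genes rose. Among the 23, limma gave 3 with an unadjusted p under 0.05, and 18 changes were positive. The 23 leave out bonsai and tko, small-subunit proteins under other names, of which bonsai rose by 0.26 (limma adjusted p = 0.0148). The difference between subunits was not tested. Of the 40 genes with bacterial-type numbers 9 rose (22.5%), and of the 29 others 5 (17.2%). Those with other assigned roles did not pass: mRpL10 had a change of 0.15 ± 0.07 and mRpL12 of 0.15 ± 0.08 (limma adjusted p = 0.176 and 0.230), mRpS29 had -0.01 ± 0.09, and mRpS18A, mRpS18B and mRpS18C had 0.07, 0.02 and 0.05.

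The count of 14 was lower in several other fits. Without replicate 1 of the sucrose-exposed males 4 genes were called. Without replicate 2 of the F1 males of sucrose-exposed parents 7 were called, and without replicate 1 of that group 9. When only these 6 arrays were fitted, 7 were called. Over all probe sets the higher calls in these fits, in the same order, were 823, 861, 1077 and 1058, against 1188 in the main fit. With the GAPDH 3′ minus 5′ difference as a covariate, 3 were called, mRpL9, mRpL28 and mRpL35, and the median log2 change of the 69 genes was 0.087 in place of 0.13; the higher calls among all probe sets fell to 695 with the covariate, against 1188 without it. The GAPDH difference averaged 1.54 ± 0.0439 in F1 males of sucrose-exposed parents and 1.62 ± 0.0860 in sucrose-exposed males (SD, n = 3 each; exact permutation p = 0.3, two-sided), and its part in the changes was not tested. mRpL28, mRpL9 and mRpL35 were called in each of the 23 alternatives run, and mRpL18 in 22. Centring each array on its median gave 20 calls and quantile normalization 21, all higher, and moved the higher share of all called probe sets to 49.4% and 42.7%, in place of 30.8%. Without replicate 3 of the F1 males of sucrose-exposed parents, whose array median stood apart, 10 were called.

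**Figure D4:**
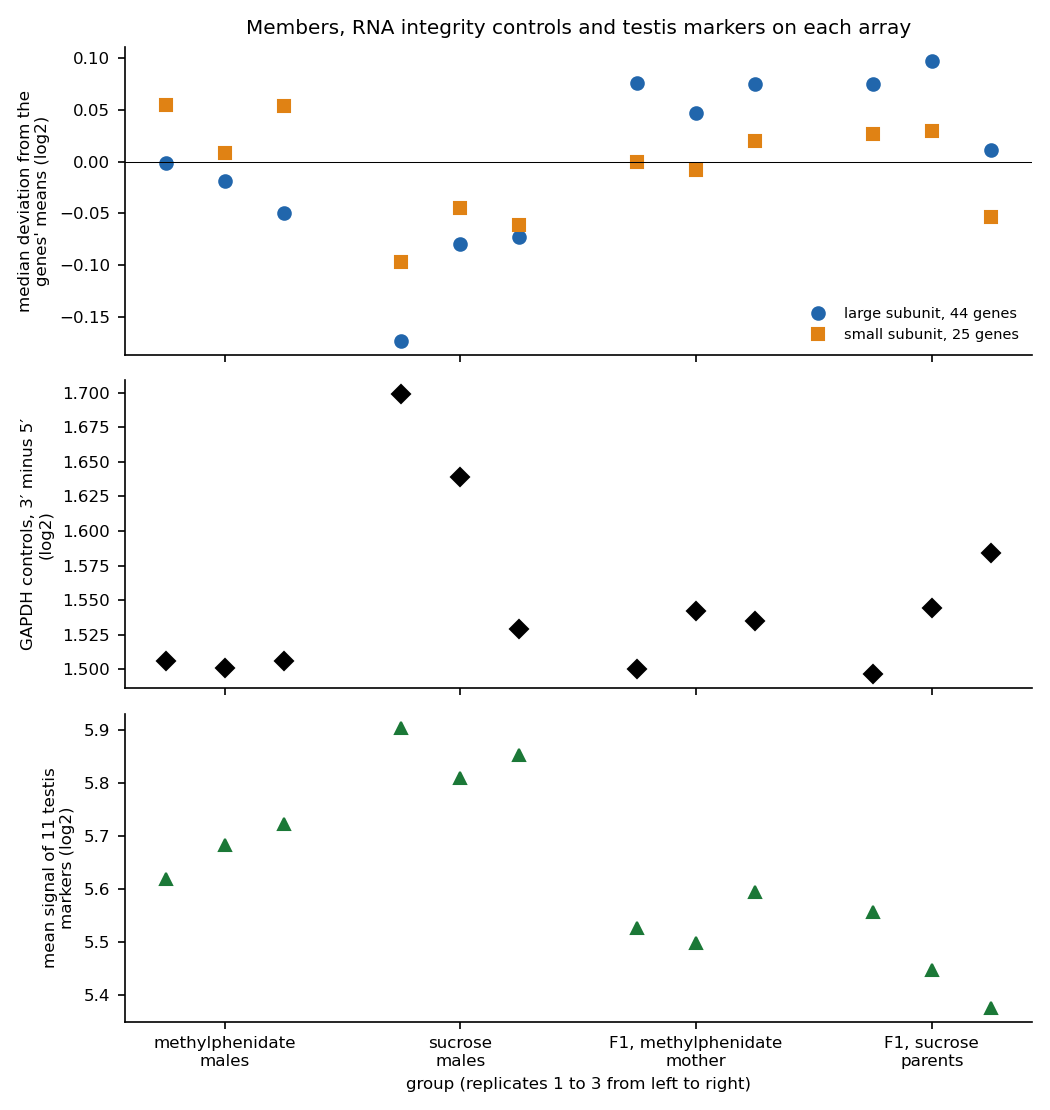
From top to bottom, for each of the 12 arrays (replicates 1 to 3 within each group): the median deviation of the large-subunit (circles) and small-subunit genes (squares) from their own means over 12 arrays, the GAPDH control signal at the 3′ end minus that at the 5′ end, and the mean signal of 11 testis markers, all on the log2 scale, with axes that do not start at 0. The 3 sucrose-exposed arrays have the lowest large-subunit values, between -0.17 and -0.07, and the highest testis marker signals, between 5.81 and 5.90.

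The array values follow the same order. The median deviation of the 44 large-subunit genes was 0.07, 0.10 and 0.01 on the arrays of F1 males of sucrose-exposed parents, against -0.17, -0.08 and -0.07 on those of sucrose-exposed males. For the 25 small-subunit genes it was 0.03, 0.03 and -0.05 in the F1 males, against -0.10, -0.04 and -0.06 in the exposed males. The large-subunit values did not overlap and the small-subunit values did.

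Tissue markers differed between the same groups, where 6.33% of all probe sets were called higher and 14.2% lower. Of 11 testis markers 9 fell, with a median log2 change of -0.44, and their mean log2 signal was between 5.38 and 5.56 in F1 males of sucrose-exposed parents and between 5.81 and 5.90 in sucrose-exposed males. Of 6 muscle markers 4 rose, with mean log2 signals between 8.11 and 8.43 in the F1 males and between 7.66 and 7.82 in the exposed males. Of 6 accessory gland markers 3 rose, of 4 midgut markers 3 rose, and of 4 fat body markers 2 rose and 1 fell. Of 7 female-specific genes Yp3 rose, by 1.39 on the log2 scale. Their part in the changes of the ribosomal protein genes was not tested.

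The same comparison with the drug in the older generation set F1 males of a methylphenidate-exposed mother against methylphenidate-exposed males. It shares no array with the comparison of the sucrose groups. Here 2 of the 69 genes rose, mRpL23 and mRpL27, and none fell, against 4.76% of all probe sets higher and 3.76% lower. The median log2 change was 0.04, where that of all probe sets was -0.02, and 42 of the 69 were above 0. Values lay wholly above for 14 genes, against 12.6% of all probe sets, and wholly below for 6, against 15.6%.

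mRpL23, whose bacterial homologue lines the exit of the polypeptide tunnel, had log2 signals of 4.51, 4.40 and 4.43 in F1 males of a methylphenidate-exposed mother, against 4.03, 4.24 and 4.12 in methylphenidate-exposed males. Its groups did not overlap and the change was 0.32 ± 0.08 (SE), or 1.25-fold (limma adjusted p = 0.0271). mRpL27 had 4.42, 4.44 and 4.39 in the F1 males, against 4.18, 4.08 and 4.06 in the exposed males, again without overlap. Its change was 0.31 ± 0.08, or 1.24-fold (limma adjusted p = 0.0277). Neither call was kept in every fit that left out an array: no gene was called without any 1 of the 3 F1 arrays or without replicate 3 of the methylphenidate-exposed males, and 1 was called without its replicate 1 or 2. With the dimmest 50% of probe sets left out 5 were called, 3 higher and 2 lower (mRpS11 and mRpS28). Among the 9385 probe sets kept by that filter, 956 were called higher and 912 lower.

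The median in this comparison was 0.06 for the large and -0.03 for the small subunit, where that of all probe sets was -0.02. The difference between subunits was not tested. Values lay wholly above for 13 of 44 large-subunit and 1 of 25 small-subunit genes, against 12.6% of all probe sets. They lay wholly below for 1 of the 44 and 5 of the 25, against 15.6% of all probe sets. Those below included mRpS11 at -0.23 ± 0.07, mRpS28 at -0.26 ± 0.08 and mRpS22 at -0.17 ± 0.06, and none of these passed (limma adjusted p = 0.0634, 0.0696 and 0.131). The second probe set of mRpS11 had -0.06 ± 0.08, with overlapping groups. On the positive side mRpL9 had 0.29, mRpL18 0.24 and mRpL30 0.19, likewise below the threshold (limma adjusted p = 0.0723, 0.0916 and 0.122). GAPDH integrity values were close here, at 1.53 ± 0.0225 in F1 males of a methylphenidate-exposed mother and 1.504 ± 0.00299 in methylphenidate-exposed males (SD, n = 3 each; exact permutation p = 0.4, two-sided). Of the tissue markers, 1 of 11 testis genes fell, against 3.76% of all probe sets. A rise was called for 6 of 6 muscle, 4 of 6 accessory gland, 2 of 4 midgut and 3 of 4 fat body genes, against 4.76%.

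Set side by side, 13 of the 14 genes that rose between the sucrose groups had a positive change between the methylphenidate groups as well. Of the 13, 8 did not overlap and 6 had an unadjusted limma p under 0.05. The exception was mRpL4, at 0.25 between the sucrose groups and -0.04 between the methylphenidate groups. Of all probe sets, 45.5% had a positive change between the methylphenidate groups, 12.6% lay wholly above and 22.2% had an unadjusted limma p under 0.05. The 14 had a median of 0.30 between the sucrose groups, which chose them, and of 0.15 between the methylphenidate groups. mRpL27 was called in both. Over all 69 genes the changes correlated at 0.53 (Pearson's r) and 0.538 (Spearman's rho); these are values across genes that share the arrays of each group, and are a description. Whether a gene's change differs between these comparisons is the same test as the difference of drug effects above, which called none of the 69.

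**Figure D5:**
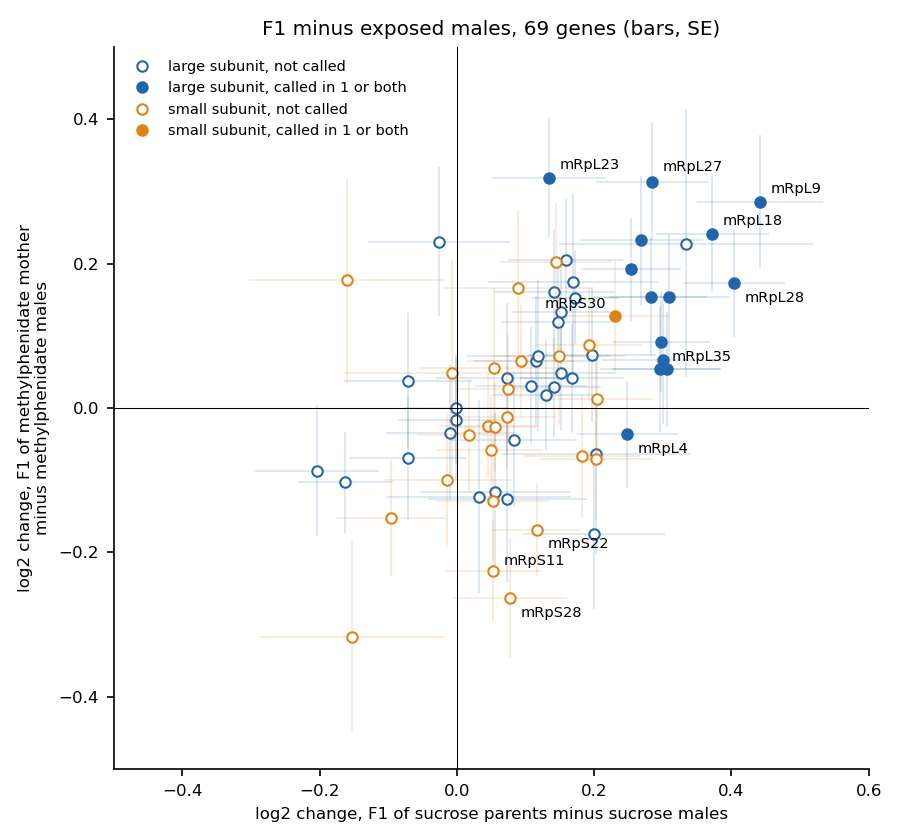
Log2 change between F1 males of a methylphenidate-exposed mother and methylphenidate-exposed males (vertical) against that between F1 males of sucrose-exposed parents and sucrose-exposed males (horizontal) for the 69 genes, with bars of 1 SE; blue is the large and orange the small subunit, and filled points were called in 1 or both comparisons. The filled points lie to the right of 0, mRpL23 and mRpL27 are highest, and mRpS11, mRpS22 and mRpS28 lie below 0.

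Genes for 2 further small-subunit proteins, bonsai and tko, carry names of their own and are not among the 69. bonsai, the homologue of mRpS15, had log2 signals of 3.74, 3.69 and 3.70 in F1 males of sucrose-exposed parents, against 3.42, 3.46 and 3.47 in sucrose-exposed males, and rose by 0.26 ± 0.07 (SE; limma adjusted p = 0.0148). It also rose between the methylphenidate groups, by 0.25 (limma adjusted p = 0.0350). tko had changes of 0.24 ± 0.10 and 0.20 ± 0.10 in the same comparisons and did not pass (limma adjusted p = 0.119 and 0.256). In exposed males bonsai had -0.08 and tko 0.16, and in F1 males -0.09 and 0.12, with no call.

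Genes that work beside the ribosome in mitochondrial translation did not move as a block between the sucrose groups. Of 11 translation factors mEFTu1, an elongation factor Tu, rose by 0.39 (limma adjusted p = 0.00256), while mEFTs, the factor that recycles it, fell by 0.35 and mEFTu2 fell by 0.28 (limma adjusted p = 0.00556 and 0.0455). mEFTu1 also rose between the methylphenidate groups, by 0.27 (limma adjusted p = 0.0398). Of 14 mitochondrial aminoacyl-tRNA synthetases, which load amino acids on transfer RNAs, none rose, and TrpRS-m and CysRS-m fell by 0.42 and 0.33 (limma adjusted p = 0.00166 and 0.00646); ValRS-m had -0.36 without passing (limma adjusted p = 0.0517). Of 6 genes of mitochondrial RNA processing and rRNA modification, scu, a subunit of mitochondrial RNase P, rose by 0.37 (limma adjusted p = 0.00905), and bsf and mTerf3 had 0.13 and 0.11 without passing.

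With methylphenidate in exposed males, TrpRS-m fell by 0.30 (limma adjusted p = 0.0398), and no other gene of these 3 lists passed. CysRS-m had -0.19, TyrRS-m 0.31, mEFTs -0.22, mEFTu1 0.20, GatB 0.18, scu 0.25, bsf 0.19 and mTerf5 0.10. Of 7 genes of mitochondrial DNA replication and transcription, mtSSB, the single-stranded DNA-binding protein, rose by 0.39 (limma adjusted p = 0.0334), with mtTFB2 at -0.26 and TFAM at 0.13. Of 17 import and chaperone genes, the prohibitin Phb2 rose by 0.43 and the chaperonin Hsp60A by 0.29 (limma adjusted p = 0.0138 and 0.0293), and Tim13 had -0.27. In F1 males no gene of these 5 lists passed. For the difference of effects (F1 minus exposed) mtTFB2 was the only gene of these lists called, at 0.65 (limma adjusted p = 0.0191).

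Between the sucrose groups, PolrMT, the mitochondrial RNA polymerase, fell by 0.38 (limma adjusted p = 0.00444), as the only call among the 7 genes of replication and transcription; mtTFB2 and SLIRP2 had -0.28 and 0.16. Of the import and chaperone genes Phb2 rose by 0.47, and 6 of 17 fell, among them Hsp60C by 0.40 and the inner membrane translocase gene Tim17b2 by 0.45 (limma adjusted p = 0.00222, 0.00481 and 0.00660). Between the methylphenidate groups PolrMT fell by 0.39, mtSSB fell by 0.33 and mtTFB2 rose by 0.37 (limma adjusted p = 0.00666, 0.0411 and 0.0225), and no import gene passed.

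The products of mitochondrial translation assemble with nuclear-encoded subunits of the respiratory chain and ATP synthase. Of 53 such nuclear subunits 23 rose and none fell between the sucrose groups, with a median log2 change of 0.22. Between the methylphenidate groups 20 rose and none fell, with a median of 0.24. Of all probe sets, 6.33% were higher in the first comparison (13.6% with the dimmest 50% left out) and 4.76% in the second. COX7A, ND-75 and ATPsyndelta had 0.37, 0.40 and 0.40 between the sucrose groups (limma adjusted p = 0.00154, 0.00291 and 0.00309). Methylphenidate in exposed males moved none of the 53, whose median was -0.03; UQCR-6.4 had -0.18 and ND-B8 -0.21.

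Cytoplasmic ribosomal protein genes ran differently between generations. Of 36 measured, 1 fell and none rose between the sucrose groups, with a median log2 change of 0.01; the gene was RpL10Aa (-0.47, limma adjusted p = 0.00247), while RpS19b and RpS10a had -0.21 and -0.26 without passing. In exposed males 33 of the 36 had positive changes under methylphenidate, with a median of 0.16 beside 0.09 for the mitochondrial ribosomal protein genes, and none passed. An unadjusted limma p under 0.05 was found for 25 of the 36 (69.4%), against 14.5% of the 69 and 15.3% of all probe sets. Values lay wholly above for 28 and wholly below for 1, against 9.28% and 12% of all probe sets. RpLP0, RpL28 and RpL34a had 0.25, 0.25 and 0.26 (limma adjusted p = 0.0671, 0.0706 and 0.0753). Between the methylphenidate groups all 36 changes were negative, with a median of -0.16, and none passed. No difference between lists was tested.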

How the data were processed

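The authors deposited a table with 1 log2 signal for each probe set on each array; RMA, affy and limma are named in the submitters' processing notes, with no version, order or setting. The log base was checked on the bacterial controls, whose rise of 5.72 was 0.944 of the nominal log2 ratio. Of 18952 probe sets on the Affymetrix Drosophila Genome 2.0 array, 183 controls were left out. The array's annotation gave 1 gene for 13647 of the 18769 others, several for 402 and none for 4720; 13544 symbols were updated through RefSeq gene identifiers.

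All 12 arrays entered 1 limma fit (version 3.58.1, R 4.3.3; lmFit, contrasts.fit, eBayes) of 4 group means with 5 contrasts, two-sided, with no filter on dim probe sets. The fit was tested on simulated data. The members and lists were chosen with earlier results of these data known. Named were, in each contrast, the 8 members with the smallest p; the 3 brightest, 3 dimmest and 3 most variable; mRpL10, mRpL12, mRpS29 and the mRpS18 paralogs; tko and bonsai; and up to 3 genes per list by p in 2 contrasts. Genes named after their values were seen are marked. Replicate numbers did not pair arrays (correlations of deviations -0.174 to 0.134). Precision is limited by 3 arrays a group. Plots were drawn with matplotlib 3.10.9. Alternatives are given in the closing section.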

Additional observations from a re-analysis of the deposited data

How the results depend on the processing

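Over 23 alternatives, none of the 69 genes was called in exposed males, in F1 males or for the difference of effects, and no result changed sign past the threshold. Between the sucrose groups the 14 calls became 7 with only those 6 arrays and 3 with the GAPDH covariate. They became 4 to 13 when 1 array was left out (4 without sucrose-exposed replicate 1). The other settings gave 11 to 21, all higher. Higher calls over all probe sets became 695 with the covariate and 823 without sucrose-exposed replicate 1, in place of 1188. Between the methylphenidate groups the 2 calls became 5 with the dimmest 50% of probe sets left out, 4 with array weights, and 0 to 3 when 1 array was left out. Over all probe sets, 956 were higher and 912 lower with that filter. With array weights it was 1083 and 1031, and in the main fit 894 and 705. The median log2 change in exposed males (0.09) was 0.018 with the GAPDH covariate and 0.056 to 0.11 over the left-out arrays. In F1 males (-0.02) it was -0.065 with quantile normalization and -0.080 with centring, and -0.046 to 0.013 over the left-out arrays, above 0 without replicate 2 of the F1 males of sucrose-exposed parents; for the difference (-0.09) it was -0.13 with either, and -0.13 to -0.072 over the left-out arrays. Between the sucrose groups (0.13) it was 0.19 with quantile normalization, 0.20 with centring and 0.087 with the covariate. The causes were not tested. Only a shared number links replicates; with the replicate number as a block 12 genes were called between the sucrose groups, 2 between the methylphenidate groups and 0 elsewhere; mRpL14 and mRpS30 lost their calls in the first (limma adjusted p = 0.0652 and 0.0706), and in the second mRpL23 did (0.0515) while 1 of the 2 calls was kept. On each array 36.8% to 38.8% of probe sets had a log2 signal under 0.5, where small changes are hard to measure.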
